A study of Mus musculus with 6 samples.

Results

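The classical protein tyrosine phosphatases were examined in BCR-ABL1-transformed mouse pre-B cells, a model of Philadelphia chromosome-positive acute lymphoblastic leukaemia, with and without Cre recombinase acting on a floxed Bcor gene. Members were taken by symbol, as every gene named Ptpn followed by a number or Ptpr followed by a letter (and, for some, a digit). Of 38 such symbols in the RefSeq GRCm38.p6 gene table, 37 had a probe set of their own among 19938 genes tested. The remaining symbol, Ptprt, was not analysed here. The 37 members comprised 20 receptor-type genes (Ptpr) and 17 non-receptor genes (Ptpn).

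All cells were of the C57Bl/6 strain with the genotype Bcor fl/Y, so the controls carried the floxed allele too. They were transduced with PMIP-CRE-ERT2 or with the empty counterpart PMIP-ERT2, and selected with puromycin. Both groups received 0.5 micromolar 4OH-Tamoxifen, which switches the ERT2 fusion on, for 2 days. There were 3 whole-transcript arrays per group, and 3 replicates each is a small number that limits the precision. Because no number of animals, cultures or clones behind the replicates is given, a p-value here covers only array-to-array spread, which may be technical. Every Cre-ERT2 array had active Cre and a floxed Bcor, so effects of Cre itself and of Bcor loss cannot be told apart.

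Protein tyrosine phosphatases remove phosphate from tyrosine residues and so oppose or, for some substrates, release the activity of tyrosine kinases. The classical members share a catalytic domain with a conserved cysteine. Receptor-type members span the membrane, and non-receptor members are directed to their substrates by SH2, FERM, PDZ, proline-rich or other domains. In B-lineage cells this family is known for setting SRC-family kinase activity (Ptprc, Ptprj), for acting below inhibitory receptors (Ptpn6) and for dampening antigen receptor and JAK-STAT signals (Ptpn22, Ptpn1, Ptpn2).

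Bcor, the targeted gene, was read first. Its log2 level was 10.12 ± 0.0517 in ERT2 and 9.16 ± 0.0716 in Cre-ERT2 (SD, n = 3 each), and it was lower in each Cre-ERT2 array. The floxed part of Bcor is not named, so the probe set may lie partly outside it. Array medians over all probe sets lay between 8.61 and 8.68, and no pair of arrays held identical values. Of the B-lineage markers 13 of 14 were measured, and their mean log2 level was 11.95 to 12.01 in ERT2 and 11.97 to 12.02 in Cre-ERT2. Among them Igll1, which encodes a component of the surrogate light chain of the pre-B cell receptor, stood at 14.20 and 14.25 in the group means. Dntt (0.86) and Cd24a (0.19) rose, and Rag2 (-0.71) and Rag1 (-0.38) fell, so some stage markers of these cells differed between the groups. These were the called markers at the threshold given below (30.8% of the 13, against 7.03% of all genes and 10.6% of those above the median level). The other 9, with Vpreb1, Vpreb2 and Pax5 among them, were not called, with differences from -0.14 to 0.09. The Cd24a call was not stable, as given below. The 15 myeloid markers averaged 8.06 to 8.09 and 8.04 to 8.08. The 16 measured T and NK markers averaged 7.93 to 8.01 and 7.90 to 7.91, and the 12 stromal markers 8.26 to 8.31 and 8.20 to 8.22. The last 2 lists were lower in every Cre-ERT2 array, and their part in the results below was not tested. Most genes leaned the same way: 13592 of 19938 differences were negative, and 7626 of the 9969 at or below the median level. Of the T and NK markers 15 lay at or below that level, and of the stromal markers 8. In a bulk array, fewer cells of a type and less RNA per cell cannot be told apart.

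Differences are given as Cre-ERT2 minus ERT2 on the log2 scale, and a gene was called at a Benjamini-Hochberg adjusted p under 0.05 from limma, computed over all 19938 genes. Of the 37 members, 4 rose (Ptpn14, Ptprj, Ptpn18 and Ptprs), 2 fell (Ptpn22 and Ptpro) and 31 were not called. The share called was 16.2%, against 7.03% of all genes (4.05% higher and 2.98% lower). The groups did not overlap for 10 members (27%), against 29.9% of all genes, so separation by itself was no more frequent here than across the array. The median difference of the members was -0.02 and that of all genes -0.04, and the median absolute differences were 0.05 and 0.06. The calls thus came from a few members, with the middle of the family close to that of all genes. The count of called members fell to 3 without ERT2 replicate 1, without ERT2 replicate 2 or without Cre-ERT2 replicate 1, and Ptpn22, Ptprj and Ptpn14 were the members called in all 3 cases. The count over all genes, 1402, fell to 770, 934 and 804 in these cases and to 743 without Cre-ERT2 replicate 2. The split of calls over all genes depended on the setting: 57.6% of called genes were higher as deposited, 67.9% after cyclic loess, 39.4% with array weights and 47.6% at an adjusted p under 0.1, so that lower calls were the majority in the last 2. Among members it was 4 higher and 1 lower after quantile normalization, 3 and 1 after median centring, and 6 and 1 after cyclic loess.

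**Figure D1:**
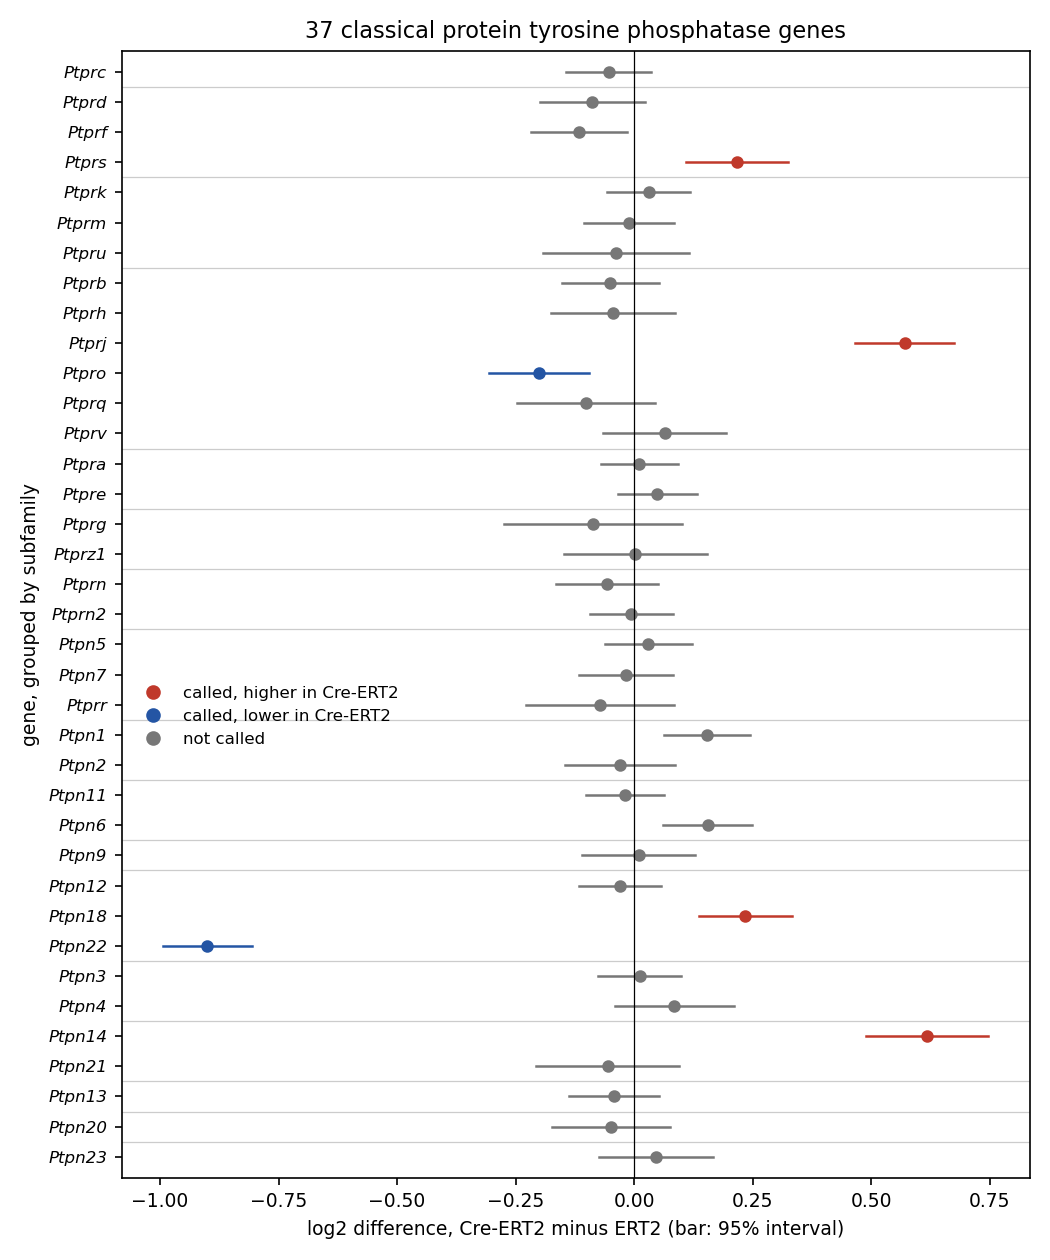
Log2 difference (Cre-ERT2 minus ERT2, x axis) of the 37 phosphatase genes, listed by structural subfamily (y axis), with points for limma estimates and bars for 95% intervals from 3 arrays per group. Ptpn22 lies alone at -0.90, Ptprj and Ptpn14 lie at 0.57 and 0.62, and 31 members in grey were not called.

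The proline-rich (PEST) phosphatases Ptpn22, Ptpn12 and Ptpn18 were the subfamily with the largest member change, and its members differed in direction. Ptpn22 encodes PEP, known as LYP in humans, which binds the kinase CSK and dephosphorylates SRC-family and SYK-family kinases below antigen receptors. Its log2 level was 9.49, 9.45 and 9.47 in ERT2 replicates 1 to 3, and 8.61, 8.58 and 8.51 in Cre-ERT2 replicates 1 to 3. The ERT2 arrays lay within 0.04 of each other and every Cre-ERT2 array was far below them. The fall was 0.90 on the log2 scale (SE 0.0410, adjusted p = 1.38e-05), a 1.87-fold lower level. The call held in all 16 alternatives tried, with values from -0.92 to -0.87. Ptpn22 also had the smallest p of the family.

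Ptpn18 encodes a phosphatase of the same subfamily, known for acting on the receptor kinase HER2. Its log2 level was 8.76, 8.73 and 8.82 in ERT2 and 9.01, 8.96 and 9.05 in Cre-ERT2. All Cre-ERT2 arrays were above all ERT2 arrays. The rise was 0.23 (SE 0.0433, adjusted p = 0.0137). Omitting ERT2 replicate 1, ERT2 replicate 2 or Cre-ERT2 replicate 1 ended the call (largest adjusted p = 0.0649). Ptpn12, or PTP-PEST, which acts on the adhesion adaptors p130Cas and PSTPIP, read 11.41, 11.36 and 11.41 against 11.39, 11.35 and 11.36. The groups overlapped, and the 95% interval of the difference ran from -0.12 to 0.06. The adaptors that bind PEST-type phosphatases were in a list of adaptors, and of these Pstpip2 rose by 0.96 (SE 0.0574, adjusted p = 3.78e-05) and Pstpip1 stood at 0.01 (adjusted p = 0.873, named after its value was seen).

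Ptpn22 had 2 start windows of 300 bases, both on chromosome 3. They hold 6 and 3 CpG dinucleotides, whereas the median was 7 over 32851 windows of all genes and 18 over the 45 windows of members. All windows were searched for TTCNNNGAA, the palindromic core shared by STAT5 sites and, in many cases, by sites of BCL6, the repressor that BCOR binds. It reads the same on both strands as a motif, and 8.3% of all windows and 5 of 45 member windows (11.1%) held it. Among called members it lay in 1 of 2 windows each of Ptpn22 and Ptprj, in both genes the inner window. The other member windows that held it belonged to Ptpn23, Ptpre and Ptprh, which were not called. Ptpn22 is the member of largest fall and Ptprj a member of large rise, which is why their stretches are shown. Each is printed 5′ to 3′ on the gene's strand, in GRCm38.p6 coordinates, with the motif in capitals. In Ptpn22 (chr3:103860035-103860063, plus strand) the motif ends 224 bases before the start taken for the inner window. In Ptprj (chr2:90479246-90479274, minus strand) it ends 82 bases before the start so taken. Both stretches lie inside the annotated gene, past its outer window (chr3:103859545-103859844 for Ptpn22, chr2:90580546-90580845 for Ptprj). They are thus not upstream of the gene's outermost start.
Ptpn22: tctgcctttcTTCTGGGAAtggaagaact
Ptprj: accttcagtgTTCATGGAAggccctgctt
The middle letters differ between them. A match is a description of the letters and does not show binding, and the start used in these cells was not measured.

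Ptpn14 had the largest rise. It encodes a FERM-domain phosphatase known for holding the Hippo pathway coactivator YAP in the cytoplasm. Its log2 level was 10.25, 10.23 and 10.25 in ERT2 and 10.76, 10.84 and 10.98 in Cre-ERT2. The ERT2 arrays were nearly equal, with an SD of 0.00868, and the Cre-ERT2 arrays were all higher and more spread, with an SD of 0.113. The rise was 0.62 (SE 0.0564, adjusted p = 0.000345), a 1.54-fold higher level. Its call held in all 16 alternatives, with values from 0.56 to 0.67. Ptpn21, the other FERM phosphatase of this subfamily, was not called, at -0.06 (SE 0.0663).

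Among receptor-type members, Ptprj rose most. It encodes CD148, a receptor with fibronectin repeats that, with CD45, activates SRC-family kinases in B cells and macrophages, and that is also known as a growth inhibitor in epithelium. Its log2 level was 11.80, 11.79 and 11.82 in ERT2 and 12.29, 12.40 and 12.43 in Cre-ERT2. Every Cre-ERT2 array was well above the ERT2 arrays. The rise was 0.57 (SE 0.0458, adjusted p = 0.000184), a 1.49-fold higher level, and it was called in all 16 alternatives, with values from 0.54 to 0.61. Ptprj had 2 probe sets, so the rise could be read on a second one, though in the same arrays and RNA. The other one read 11.50 ± 0.0859 in ERT2 and 12.04 ± 0.0881 in Cre-ERT2 (SD, n = 3 each), a difference of 0.54 (SE 0.0601, adjusted p = 0.00123 over all single-symbol probe sets). Both probe sets thus gave a rise of about the same size.

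**Figure D2:**
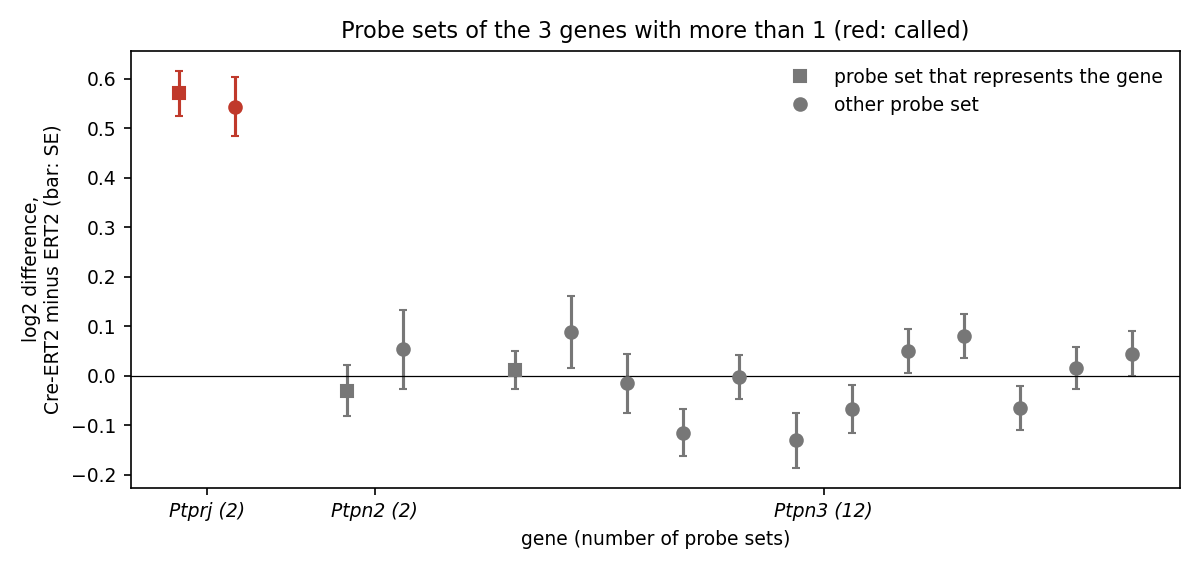
Log2 difference (Cre-ERT2 minus ERT2, y axis) of each probe set of the 3 members with more than 1 (x axis), with bars for the SE, a square for the probe set that represents the gene and red for called probe sets. Both Ptprj probe sets lie near 0.55, while the 2 of Ptpn2 and the 12 of Ptpn3 lie on both sides of 0.

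The start windows of called members differed in CpG content. The window of Ptpn14 held 40 CpG, the outer window of Ptprj 42, the window of Ptpn18 22 and those of Ptprs 21 and 18. Those of the members that fell held 6 and 3 (Ptpn22) and 5 (Ptpro), and the inner window of Ptprj also held 6. Windows of members that were not called held from 2 (Ptprc) to 47 CpG (Ptpn1), so low and high counts also occurred without a call. With so few genes the contrast is a description with no test. The letters before the outermost RefSeq start are shown for a rising member, Ptpn14, and a falling member, Ptpro, 5′ to 3′ in GRCm38.p6, with CpG in capitals. They cover chr1:189728018-189728215 (plus strand, 198 bases, 28 CpG, 80.3% G or C) and chr6:137252049-137252298 (plus strand, 250 bases, 3 CpG, 53.6% G or C). Matching stretches of the other rising members are not printed. That of Ptprj held 22 CpG in 151 bases (82.8% G or C) and that of Ptpn18 held 19 in 233 (64.8%). That of Ptprs held 6 in 169 (59.2%), nearer to Ptpro than to Ptpn14.
Ptpn14: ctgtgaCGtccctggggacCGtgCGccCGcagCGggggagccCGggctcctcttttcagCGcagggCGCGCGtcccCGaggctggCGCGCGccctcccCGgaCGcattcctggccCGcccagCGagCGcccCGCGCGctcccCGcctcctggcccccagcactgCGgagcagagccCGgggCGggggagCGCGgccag
Ptpro: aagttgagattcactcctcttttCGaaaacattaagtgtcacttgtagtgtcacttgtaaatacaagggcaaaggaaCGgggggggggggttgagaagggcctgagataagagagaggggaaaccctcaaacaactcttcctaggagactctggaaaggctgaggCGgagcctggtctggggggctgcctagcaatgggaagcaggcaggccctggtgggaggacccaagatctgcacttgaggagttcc

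Ptpro encodes a receptor of the same R3 subfamily as Ptprj, known from podocytes and B cells. Its log2 level was 8.06, 8.10 and 8.21 in ERT2 and 7.93, 7.94 and 7.91 in Cre-ERT2. The groups were apart, with ERT2 replicate 3 the highest. The fall was 0.20 (SE 0.0462, adjusted p = 0.0373). Omitting each array in turn ended this call (adjusted p = 0.0513 to 0.114), and so did quantile normalization, median centring and cyclic loess. The other 4 R3 members were not called: Ptprb, the endothelial phosphatase VE-PTP, stood at -0.05, Ptprh at -0.04, Ptprq at -0.10 and Ptprv at 0.06. RefSeq lists mouse Ptprv as a transcribed pseudogene, next to Ptpn7 on chromosome 1.

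In the R2A subfamily of heparan and chondroitin sulfate proteoglycan receptors, Ptprs (PTP sigma) rose and its relatives were not called. Ptprs read 11.04, 11.03 and 11.16 in ERT2 and 11.31, 11.25 and 11.31 in Cre-ERT2. The groups were apart, and the nearest pair, ERT2 replicate 3 and Cre-ERT2 replicate 2, differed by less than 0.1. The rise was 0.22 (SE 0.0470, adjusted p = 0.0283). It was not called after median centring, nor when an array other than ERT2 replicate 3 was omitted (largest adjusted p = 0.111). Ptprf (LAR) read 9.003, 8.93 and 9.04 against 8.89, 8.82 and 8.90, each Cre-ERT2 array below each ERT2 array, with a difference of -0.12 (adjusted p = 0.167). Ptprd read 7.74, 7.65 and 7.76 against 7.63, 7.56 and 7.68, with overlap and a difference of -0.09 (adjusted p = 0.316).

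**Figure D3:**
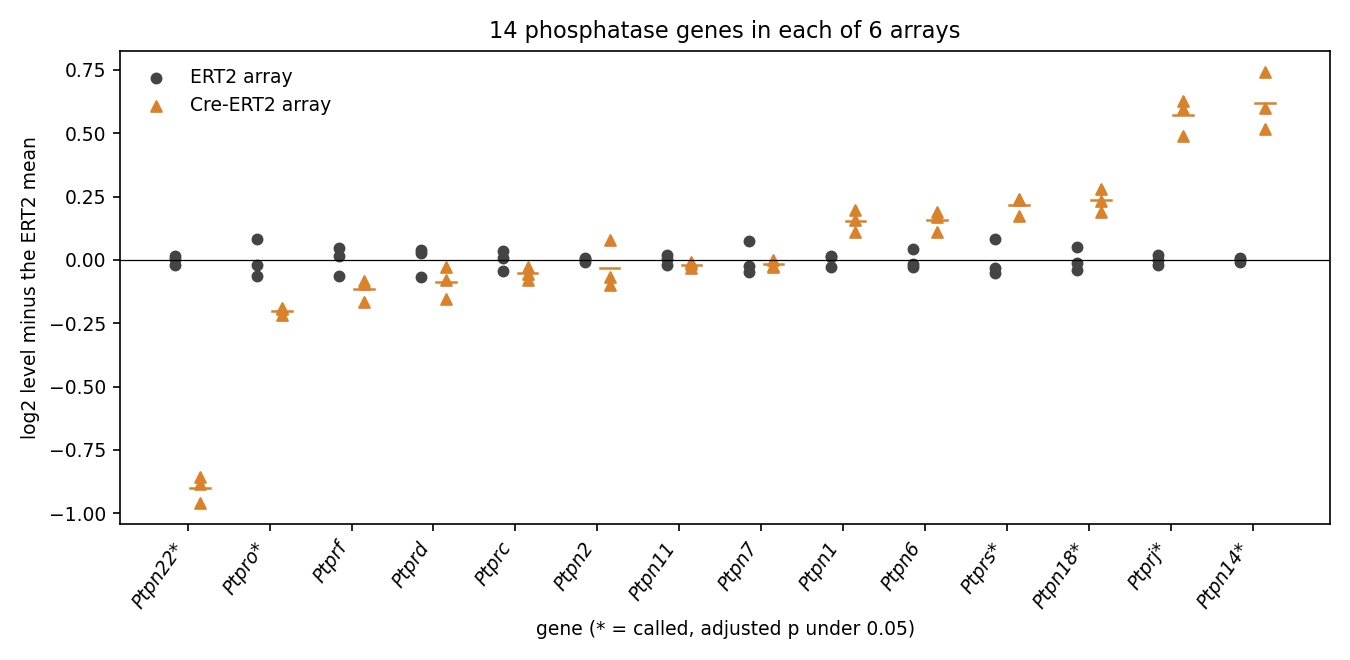
Log2 level of each array minus the ERT2 mean of that gene (y axis) for 14 members (x axis, asterisk for called members): circles are 3 ERT2 arrays, triangles 3 Cre-ERT2 arrays and short lines the Cre-ERT2 means. Ptpn22, Ptprj and Ptpn14 are far from their ERT2 arrays, and Ptpn11, Ptpn7, Ptprc and Ptpn2 overlap theirs.

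Ptprc and Ptpn11, phosphatases well known from lymphocytes, were not called. Ptprc encodes CD45, the abundant leukocyte receptor that removes the inhibitory phosphate from SRC-family kinases. It read 12.62, 12.65 and 12.57 in ERT2 and 12.54, 12.56 and 12.59 in Cre-ERT2. The groups overlapped, and the 95% interval of the difference ran from -0.14 to 0.04 (adjusted p = 0.445). Ptpn11, or SHP2, which links receptor and BCR-ABL1 signals to RAS through GAB adaptors, read 12.02, 11.98 and 12.00 against 11.99, 11.97 and 11.98. Its interval ran from -0.10 to 0.06 (adjusted p = 0.789), so a change of the size seen for Ptpn18 lies outside it.

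Ptpn6, or SHP1, the SH2-domain phosphatase recruited by inhibitory receptors, was not called. It read 12.27, 12.26 and 12.33 in ERT2 and 12.40, 12.46 and 12.48 in Cre-ERT2. All Cre-ERT2 arrays were above all ERT2 arrays, with a difference of 0.16 (SE 0.0411, adjusted p = 0.0601). Ptpn1, or PTP1B, which acts on JAK2 and insulin receptor signalling, was in the same position. It read 10.66, 10.66 and 10.62 against 10.80, 10.84 and 10.76, with a difference of 0.15 (SE 0.0396, adjusted p = 0.0549). Both were called after cyclic loess, with array weights or an intensity trend, and with the dimmest 30% or 50% of genes left out. Neither was called with the replicate block, after quantile normalization or after median centring. With 1 array left out, Ptpn6 was never called (limma adjusted p up to 0.1945). Ptpn1 was then called only without Cre-ERT2 replicate 3 (up to 0.2061). Both calls thus depended on the setting.

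Ptpn2, or TC-PTP, the closest relative of Ptpn1 and a brake on JAK1, JAK3 and STAT signalling, read 11.55, 11.54 and 11.53 in ERT2. It read 11.62, 11.47 and 11.44 in Cre-ERT2, on either side of the ERT2 arrays. Its difference was -0.03 (adjusted p = 0.753), and the second Ptpn2 probe set gave 0.05. Ptpn7, a haematopoietic phosphatase (HePTP) that binds ERK and p38 through a kinase interaction motif, read 11.45, 11.43 and 11.55 against 11.45, 11.46 and 11.48. These overlapped, with a difference of -0.02 (adjusted p = 0.844). The other members with this motif, Ptpn5 (STEP, of neurons) and Ptprr, stood at 0.03 and -0.07 and were not called.

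The remaining receptor members were not called. The cell-adhesion receptors Ptprk, Ptprm and Ptpru, which bind their own kind on other cells, lay between -0.04 and 0.03. Of the short receptors, Ptpra, an activator of SRC, stood at 0.01 and Ptpre at 0.05. Ptpre was 9.09, 9.10 and 9.14 in ERT2 and 9.16, 9.16 and 9.16 in Cre-ERT2, so its groups were apart although the difference was small (adjusted p = 0.448). Ptprg and Ptprz1, receptors with a carbonic anhydrase-like domain, stood at -0.09 and 0.00. Ptprn and Ptprn2, secretory granule proteins of endocrine cells, stood at -0.06 and -0.01.

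The remaining non-receptor members were not called either. Ptpn3 and Ptpn4, which carry FERM and PDZ domains, stood at 0.01 and 0.08. Ptpn3 is split over 12 probe sets, which lay between -0.13 and 0.09, 6 of them above 0. None of the 12 was called, and 2 had an unadjusted p under 0.05, both below 0. Ptpn13, a large FERM and PDZ protein, stood at -0.04 and Ptpn20 at -0.05. Ptpn9, with a lipid-binding SEC14 domain, stood at 0.01 and Ptpn23, an endosomal protein, at 0.05. Adjusted p for the 31 members not called ran from 0.0549 to 0.986, and their differences from -0.12 to 0.16.

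Probe-set brightness went with the calls. Of the members, 18 lay at or below the median of all genes in mean level and 19 above it. Of the dimmer members 1 was called (Ptpro, 5.56%) and of the brighter members 5 (26.3%). Among all genes 3.46% of the dimmer and 10.6% of the brighter were called. Detection limits cannot be read from these values, so the lack of a call in a dim member says little about the gene.

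The genes beside each called member were read to see whether a change reached beyond it. For each called member the 3 nearest tested genes on either side were taken in the gene order of GRCm38.p6, a choice made after the values were seen. The 6 neighbours of Ptpn22 lay between -0.07 and 0.02, and none was called (smallest adjusted p = 0.371). Among them, Bcl2l15 before it stood at -0.05 and Rsbn1 after it at 0.02. The neighbours of Ptprj lay between -0.12 and 0.07 and those of Ptpn14 between -0.13 and 0.09, with none called (smallest adjusted p = 0.176 and 0.207). Those of Ptpro lay between -0.14 and 0.09 and those of Ptprs between -0.17 and 0.02, again with none called (smallest adjusted p = 0.0919 and 0.0522). Among the neighbours of Ptpn18, the cytoskeletal linker gene Dst rose by 0.22 (adjusted p = 0.0405), with 2 genes that were not called between them. The Dst call was lost on omitting an array other than Cre-ERT2 replicate 1 (largest adjusted p = 0.125). Across all genes 7.03% were called, so few calls among neighbours say little. Some neighbours were also dim, with ERT2 means of 7.73, 5.93 and 7.45 for Olfr1272, Olfr1273-ps and Olfr1274 beside Ptprj. Bcl2l15 stood at 6.80 in ERT2.

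**Figure D4:**
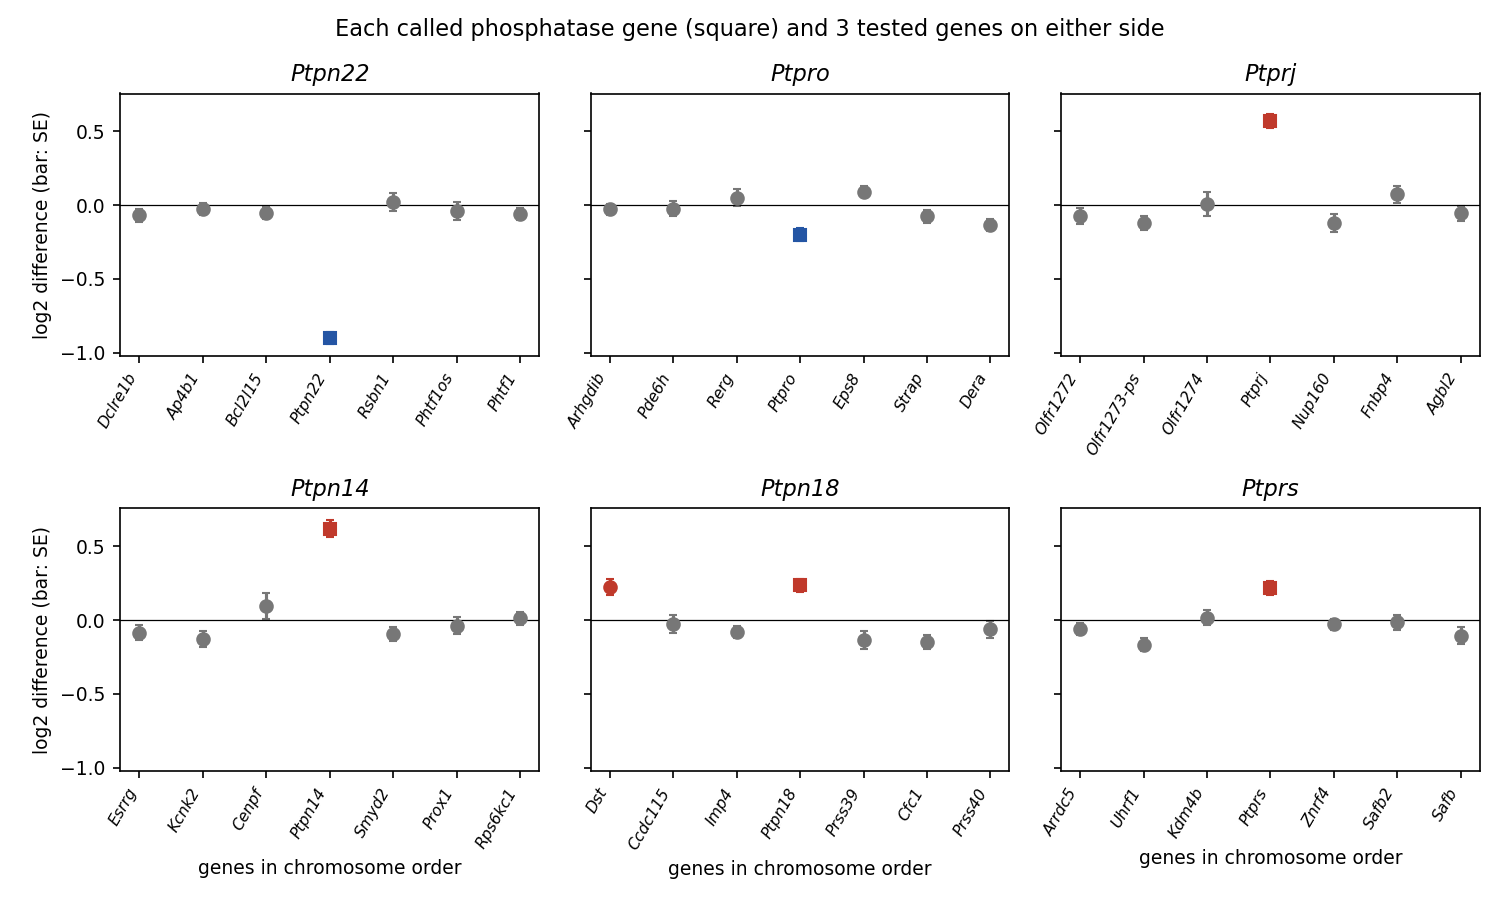
Log2 difference (Cre-ERT2 minus ERT2, y axis, bars for the SE) of each called phosphatase gene, drawn as a square, and of 3 tested genes on either side in chromosome order (x axis), with red for called higher and blue for called lower. The neighbours of Ptpn22, Ptprj and Ptpn14 lie within 0.126 of 0 while the phosphatase genes lie well away.

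Around the family, 4 lists of related genes were counted, chosen with earlier results of these data known. Of 53 measured genes for other phosphatases of the superfamily, 4 rose and 0 fell (7.55% called, against 7.03% of all genes, median -0.02), with 5 lower at an unadjusted limma p under 0.05. The share called was close to that of all genes. Dusp4, a nuclear ERK and JNK phosphatase, rose by 0.33 (SE 0.0568), Dusp5, an ERK phosphatase, by 0.25 (SE 0.0445), Ubash3b (STS-1), which dephosphorylates SYK and ZAP70, by 0.23 (SE 0.0448) and the lipid phosphatase Mtmr14 by 0.20 (SE 0.0416). Their adjusted p lay between 0.0102 and 0.0235. Omitting ERT2 replicate 1 or Cre-ERT2 replicate 2 ended the calls of Dusp5, Ubash3b and Mtmr14, and omitting ERT2 replicate 2 or Cre-ERT2 replicate 1 ended those of Ubash3b and Mtmr14. The Ubash3b call was also lost after quantile normalization and the Mtmr14 call after median centring.

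In a list of 22 immune receptors, many of them inhibitory and known to recruit SHP1 or SHP2, 4 rose and 0 fell (18.2% called, against 7.03% of all genes and 10.6% of the brighter ones, median 0.01), with 0 lower at an unadjusted limma p under 0.05 as well. Of the 22, 10 lay at or below the median level of all genes, and the 4 called lay above it. Ceacam1, an adhesion receptor, rose by 0.30 (SE 0.0485, adjusted p = 0.00676). Cd22, a sialic acid-binding inhibitor of the B cell receptor, rose by 0.27 (SE 0.0441, adjusted p = 0.00707). Btla, an inhibitory receptor for HVEM, rose by 0.27 (SE 0.0458, adjusted p = 0.00927). Sirpa, the receptor for CD47, rose by 0.19 (SE 0.0417, adjusted p = 0.0279), a call lost after quantile normalization or median centring and on omitting an array other than ERT2 replicate 3. The other 18 receptors of the list were not called.

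Of 28 tyrosine kinases that these phosphatases act on or beside, 22 were measured, 2 rose and 2 fell (18.2% called, against 7.03% of all genes and 10.6% of the brighter ones, median -0.03). Of the 22, 7 lay at or below the median level of all genes. Flt3, a receptor kinase of early progenitors, rose by 0.56 (SE 0.0396, adjusted p = 9.89e-05) and Jak2 by 0.27 (SE 0.0458, adjusted p = 0.00980). Blk, a SRC-family kinase of B cells, fell by 0.31 (SE 0.0430, adjusted p = 0.00324) and Fyn by 0.15 (SE 0.0366, adjusted p = 0.0457). Omitting each array in turn ended the Fyn call, as did quantile normalization, median centring and cyclic loess. The other kinases of the list, which had no single-symbol probe set, were not analysed here.

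Of 30 adaptors and regulators of tyrosine kinase signalling 6 rose and 0 fell (20% called, against 7.03% of all genes and 10.6% of the brighter ones, median 0.03), with 2 lower at an unadjusted limma p under 0.05. Of the 30, 3 lay at or below the median level of all genes. Lat2 (NTAL), a membrane scaffold of B cells and mast cells, rose by 1.01 (SE 0.0951, adjusted p = 0.000392), and Pstpip2 rose as given above. Lax1, an adaptor that dampens lymphocyte receptor signals, rose by 0.35 (SE 0.0454, adjusted p = 0.00241). Pag1, the membrane anchor of CSK, rose by 0.31 (SE 0.0483, adjusted p = 0.00579). Gab1 (0.21) and Grap (0.22) also rose and were named after their values were seen. Both calls were lost on omitting ERT2 replicate 1, ERT2 replicate 2 or Cre-ERT2 replicate 1, and that of Grap also on omitting Cre-ERT2 replicate 2, after quantile normalization and after median centring. CSK itself, the partner of the Ptpn22 product, was in the list of kinases and stood at -0.02 (adjusted p = 0.918, named after its value was seen).

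**Figure D5:**
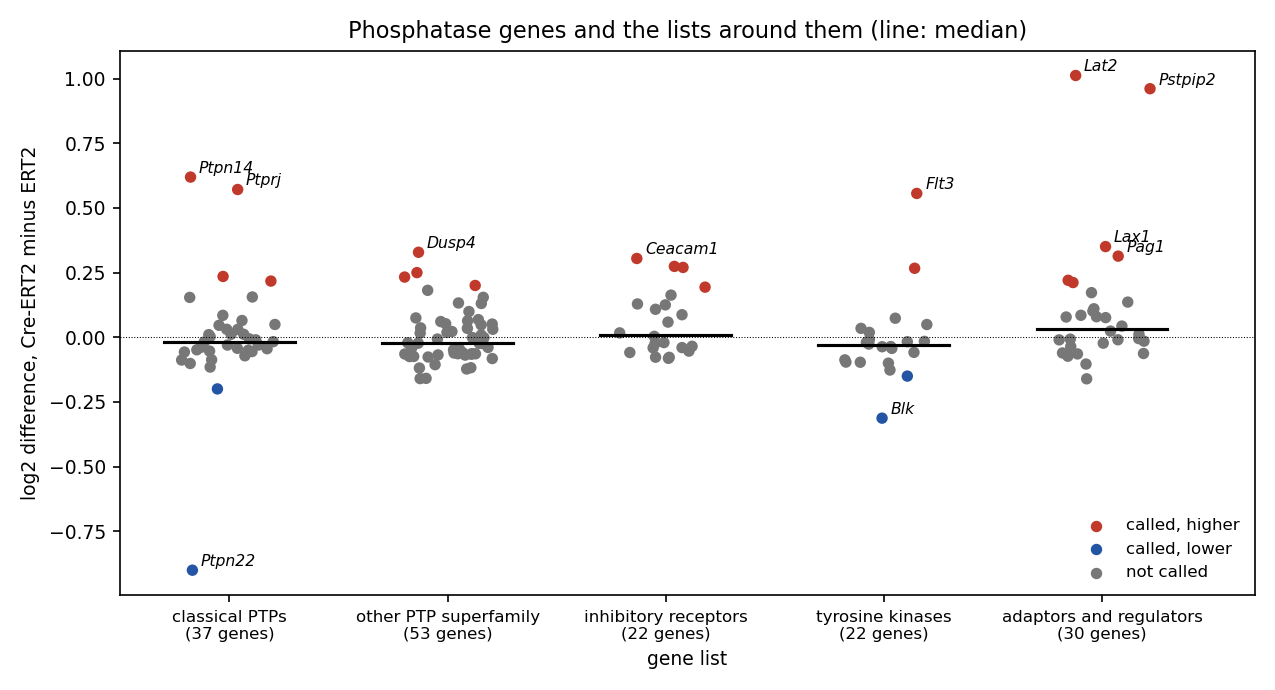
Log2 difference (Cre-ERT2 minus ERT2, y axis) of each measured gene in the phosphatase family and in 4 lists of related genes (x axis), with the median as a line and called genes in red (higher) or blue (lower). Ptpn22 is the lowest point of all 5 columns, and Lat2 and Pstpip2 the highest.

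Among all genes 7.03% were called and 13592 of 19938 differences were negative (median -0.04). Of the 4590 genes with an unadjusted limma p under 0.05, 2994 were lower. Of the 15 myeloid markers 2 rose and 1 fell (20% called), and 10 of 15 differences were negative (median -0.03). Lyz2 (0.45) and Fcgr1 (0.35) rose and Mrc1 fell by 0.54, and Cd68 stood at 0.05. Of the 16 T and NK markers 1 rose and 2 fell (18.8% called), and 13 differences were negative (median -0.07). By limma 7 had an unadjusted p under 0.05, and 5 of these were lower. Cd28 (0.39) rose, Klrd1 fell by 0.49 and Ncr1 by 0.23, and Lat stood at 0.13. Of the 12 stromal markers 11 differences were negative (median -0.08). By limma 0 were called and 5 had an unadjusted p under 0.05, all 5 lower, with Col1a1 at -0.08, Col1a2 at -0.10 and Dcn at -0.12. The Cd24a call given above was lost after median centring and on omitting an array other than Cre-ERT2 replicate 3. Omitting an array other than ERT2 replicate 1 or Cre-ERT2 replicate 3 ended the Fcgr1 call, and omitting Cre-ERT2 replicate 1 ended that of Ncr1.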

How the data were processed

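For 6 arrays the authors deposited 1 log2 value per probe set. The submitters' processing notes list RMA and Partek 6.5 without saying what each did, and the genome build is not given in the sources used here. Of 35556 probe sets, 21789 had 1 gene symbol in the platform's annotation, and each gene took its probe set of highest mean. The levels of different probe sets are not comparable with each other.

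Models were fitted over all 19938 genes as Cre-ERT2 minus ERT2, using lmFit and eBayes of limma 3.58.1 (R 4.3.3) with no trend, and p-values were adjusted by Benjamini-Hochberg. SE is the moderated standard error. On simulated data for this comparison of 19938 genes, 46.3% of genes changed by 0.25, 86.6% changed by 0.5 and 100% changed by 1 (log2) were recovered. At these sizes only 67, 67 and 66 genes were changed, and 160 genes were called, 5 of them falsely. The data gave 1402 calls, so recovery there may differ. Members, lists and tests were chosen with earlier results of these data known. The values per array are given for called members, the 6 of highest mean and the 4 uncalled of smallest p. From each list up to 4 called genes of largest change were named, or the 2 of smallest p, and the 2 brightest cell markers. Alternatives tried were a block for the replicate number, eBayes with a trend, array weights, 3 normalizations, brightness filters, the mean of probe sets, an adjusted p of 0.1 and each array left out. Promoter sequences are RefSeq's for GRCm38.p6, and 31 of 37 members had a window. The start in a window was taken at a fixed base, and for several called members the outermost RefSeq start lay elsewhere. Plots used Python 3.11.15 and matplotlib 3.10.9.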

Additional observations from a re-analysis of the deposited data

How the results depend on the processing

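Over the 37 members and 16 alternatives, 564 values were computed: 530 stayed on the same side of the threshold, 20 lost a call, 14 gained one and 0 called values changed sign. The count of called members ran from 3 to 5 with 1 array left out. The count over all genes, 1402, was 805 with the replicate block, 3339 with array weights and 2271 at an adjusted p of 0.1, and 743 to 1341 with 1 array left out. With the replicate block 4 members were called, and Ptprs and Ptpro were not, nor were Dusp5, Ubash3b and Mtmr14 of the related phosphatases. Same-numbered arrays did not deviate together (r = 0.0506, -0.0946 and -0.26 over all genes), so the numbers were not taken as pairs. The scalings moved the median of all genes by at most 0.0257. Calls in the other lists were 20 with the replicate block, against 28. Signal over background was not known, which limits what dim members can show.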
